A study of Mus musculus with 2 samples.

Results

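Fabp7, Smpdl3a, Atoh7 and Etnppl lie near the Tet1 or Tet2 gene and had very different transcript levels in Cre- and Tet tcKO retinas. They were chosen by their values in these data. A gene qualified when its level differed at least 8-fold between the summed counts of the 2 libraries, when it reached 10 unique molecular identifiers (UMIs) per 1000000 (CPM) in a library, and when its body lay within 10 Mb of a Tet gene. Of 32227 genes in the gene table, these 4 met the rule. At 10 CPM there were 11158 genes, and 222 of those lay within 10 Mb of a Tet gene, the 3 Tet genes included. The difference of the 4 genes between the libraries is therefore a description of how they were picked, and no test was made of it. Fabp7, Smpdl3a and Atoh7 were higher in Tet tcKO and Etnppl was lower.

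The measurements are single-nucleus RNA-seq of whole retinas of C57 BL/6J mice at postnatal day 21, with 1 library per genotype. The Cre- library is labelled WT and came, per the study's methods, from age-matched animals of separate Cre- breeders. The Tet tcKO library came from animals with floxed Tet1, Tet2 and Tet3 alleles, deleted through a Chx10-Cre-GFP transgene that is active in retinal progenitors and can be mosaic, for which animals were bred to carry 2 copies of it. Retinas were pooled, and nuclei of 2 dissociations per genotype entered each library without a label for the pool, so each genotype is 1 sample. Genotype, breeding line, dissociation and library preparation cannot be told apart here, and all intervals are exact 95% intervals that cover counting error only.

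The 4 genes have unrelated known roles. FABP7 is the brain-type fatty acid binding protein and marks radial glia and neural progenitors. SMPDL3A is a secreted phosphodiesterase related to the acid sphingomyelinase. ATOH7 is a basic helix-loop-helix (bHLH) factor that retinal progenitors express transiently and that is needed for retinal ganglion cells (RGCs) to form. ETNPPL is an enzyme that breaks down phosphoethanolamine, and in brain its transcript is known from astrocytes. The TET enzymes oxidise methylated cytosine, mostly at CpG dinucleotides, as a step of active DNA demethylation.

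Positions are given on GRCm39, the build of the files. Fabp7 (ENSMUSG00000019874) lies on the plus strand of chromosome 10 from 57660956 to 57664554, and its canonical transcript has 3 exons. Smpdl3a (ENSMUSG00000019872) follows on the same strand from 57670431 to 57688374, with 8 exons, and begins 5.88 kb after Fabp7 ends. Atoh7 (ENSMUSG00000036816) has 1 exon and lies on the plus strand from 62935430 to 62937058. Tet1 lies on the minus strand from 62640349 to 62744775, so that Fabp7 and Smpdl3a are 4.98 and 4.95 Mb away on one side and Atoh7 is 191 kb away on the other. Etnppl (ENSMUSG00000019232), with 13 exons, lies on the plus strand of chromosome 3 from 130411097 to 130431441, at 2.74 Mb from Tet2 (133169436 to 133250900, minus strand). An annotated gene on the opposite strand overlaps Fabp7 and Smpdl3a and another overlaps Etnppl. Neither is in the gene table, and no source used here says whether the counting used strand, so reads of these genes and their antisense partners cannot be told apart.

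CpG dinucleotides are where the TET enzymes act, so the promoters of the members are shown with each CpG in capitals. RefSeq gives them on build GRCm38.p6, 5′ to 3′, from 250 bases before the start of the gene to 50 bases after it, and 3 of the 4 members had an entry. The Fabp7 window is chr10:57784673-57784972 (plus strand), the Atoh7 window is chr10:63099535-63099834 (plus strand) and the Etnppl window is chr3:130617198-130617497 (plus strand), the upstream one of 2 overlapping entries.
Fabp7: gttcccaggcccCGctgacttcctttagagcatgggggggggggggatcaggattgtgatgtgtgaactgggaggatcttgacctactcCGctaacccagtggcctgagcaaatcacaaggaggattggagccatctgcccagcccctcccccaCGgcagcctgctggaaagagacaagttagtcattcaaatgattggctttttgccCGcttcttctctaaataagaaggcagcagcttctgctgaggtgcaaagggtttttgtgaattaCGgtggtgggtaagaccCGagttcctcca
Atoh7: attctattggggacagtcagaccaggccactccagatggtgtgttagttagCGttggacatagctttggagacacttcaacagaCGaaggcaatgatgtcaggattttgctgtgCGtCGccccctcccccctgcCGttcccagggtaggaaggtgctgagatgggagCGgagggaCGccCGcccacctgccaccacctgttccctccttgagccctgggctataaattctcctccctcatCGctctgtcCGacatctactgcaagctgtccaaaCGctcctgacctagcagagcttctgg
Etnppl: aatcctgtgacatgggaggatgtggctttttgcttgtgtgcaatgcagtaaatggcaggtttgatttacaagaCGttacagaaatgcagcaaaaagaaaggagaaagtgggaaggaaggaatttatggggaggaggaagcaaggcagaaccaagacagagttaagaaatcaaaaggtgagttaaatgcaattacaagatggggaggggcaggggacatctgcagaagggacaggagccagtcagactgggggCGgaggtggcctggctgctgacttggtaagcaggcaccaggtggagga
The Fabp7 window held 6 CpGs, the Atoh7 window 11 and the Etnppl window 2, against a median of 7 over 32851 promoters of this length. At or above these numbers stood 56.4% of all promoters for Fabp7, 41.4% for Atoh7 and 85.9% for Etnppl. The bHLH motif CANNTG, which reads the same on both strands, occurred 2 times in the Fabp7 window, 3 times in that of Atoh7 and 2 times in that of Etnppl. At least 1 such match was present in 72.3% of all promoters. Methylation was not measured in these libraries.

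The libraries differed in depth. Cre- had 7357 nuclei with 11510585 UMIs (median 1107 per nucleus) and Tet tcKO had 6766 nuclei with 16590747 UMIs (median 1836.5). Mitochondrial genes made up 5.47% and 1.76% of UMIs, and 1 cell barcode was shared by both libraries. The targeted genes were detected in both libraries. In Cre- and Tet tcKO, Tet1 stood at 50.2 and 61.2 CPM, Tet2 at 105 and 139 CPM, and Tet3 at 180 and 174 CPM. Counts cover whole genes and not the floxed exons, so these levels do not check the deletion. The median gene at 10 CPM had a log2 ratio of Tet tcKO over Cre- of 0.15 under division by library totals and of 0.04 under TMM scaling, and under TMM the members stood at 6.89 (Fabp7), 3.80 (Smpdl3a), 3.18 (Atoh7) and -3.14 (Etnppl).

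Fabp7 was nearly undetected in Cre- and readily detected in Tet tcKO. It had 5 UMIs in 5 Cre- nuclei, 0.434 CPM (0.141 to 1.01), and 919 UMIs in 812 Tet tcKO nuclei, 55.4 CPM (51.9 to 59.1). The level was 128-fold higher in Tet tcKO, with a log2 ratio of 6.99 (5.77 to 8.62). Of the 812 nuclei with Fabp7, 723 carried 1 UMI of it and none carried more than 4, so the sum does not come from a few nuclei. Among the 5 Cre- UMIs, 4 were in nuclei annotated as rods and 1 in a nucleus annotated as a cone.

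Smpdl3a, the neighbour of Fabp7, differed in the same direction. It had 18 UMIs in Cre-, 1.56 CPM (0.927 to 2.47), and 388 UMIs in Tet tcKO, 23.4 CPM (21.1 to 25.8). This was 15.0-fold higher in Tet tcKO, with a log2 ratio of 3.90 (3.22 to 4.67). The UMIs were spread over 17 Cre- and 352 Tet tcKO nuclei, with at most 4 in a nucleus.

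Atoh7, which is normally a gene of the embryonic retina, also stood higher in Tet tcKO at postnatal day 21. It had 18 UMIs in Cre-, 1.56 CPM (0.927 to 2.47), and 252 UMIs in Tet tcKO, 15.2 CPM (13.4 to 17.2). The level was 9.71-fold higher in Tet tcKO, with a log2 ratio of 3.28 (2.59 to 4.06), and 247 nuclei carried it there against 17 in Cre-.

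Etnppl went the other way. It had 176 UMIs in 163 Cre- nuclei, 15.3 CPM (13.1 to 17.7), and 31 UMIs in 31 Tet tcKO nuclei, 1.87 CPM (1.27 to 2.65). The level was 8.18-fold lower in Tet tcKO, with a log2 ratio of -3.03 (-3.63 to -2.48). The 8-fold limit corresponds to a log2 ratio of 3, which lies inside the counting intervals of both Atoh7 and Etnppl.

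In whole libraries, a higher sum can come from more nuclei of a class or from more RNA in each, and the classes differed strongly. Nuclei annotated as cones were 265 of the Cre- and 3225 of the Tet tcKO library, and nuclei annotated as rods were 5214 and 6. Cell classes are the authors' annotation. Against marker genes, clusters named amacrine, RGC, horizontal and cone never held more leading markers from a different class, while 3 of 15 rod, 4 of 9 bipolar and 1 of 3 Müller glia clusters did, among their 10 leading genes. Genotypes were compared in rods and cones pooled, in cones with their clusters named, and in amacrine cells and RGCs. The pool of rods and cones includes the 3 rod clusters that did not pass, 32, 38 and 40. A cluster with no leading marker of any class also passed. Cluster 11, with 264 of the 265 Cre- cones, passed in this way. Values for bipolar cells and Müller glia are given side by side without a ratio. Fabp7, Smpdl3a or Atoh7 were among the leading genes of Tet tcKO cone clusters 48, 50, 51, 53 and 55, and Etnppl among those of Cre- Müller cluster 14, the Müller cluster that did not pass, so levels by cluster are descriptions and not tests.

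In rods and cones pooled, the 3 genes near Tet1 stood higher in Tet tcKO. Cre- had 5 Fabp7 UMIs (0.66 CPM) and Tet tcKO 684 (92.3 CPM), with a log2 ratio of 7.13 (5.90 to 8.76). Smpdl3a had 14 UMIs (1.85 CPM) against 283 (38.2 CPM), with a log2 ratio of 4.37 (3.60 to 5.26). Atoh7 had 10 UMIs (1.32 CPM) against 188 (25.4 CPM), with a log2 ratio of 4.26 (3.35 to 5.35). In cone-annotated nuclei alone, 264 of 265 Cre- nuclei were in cluster 11 and all Tet tcKO nuclei in clusters 46, 48 and 50 to 55. The 10 leading genes of cluster 11 held 0 cone markers. In cone-annotated nuclei the log2 ratio was 6.57 (4.09 to 11.9) for Fabp7, on 1 Cre- UMI, 3.301 (1.93 to 5.19) for Smpdl3a and 3.13 (1.56 to 5.42) for Atoh7.

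The CPM difference of each member was divided between changes in class shares and changes in level inside classes, with rods and cones pooled. In this split, levels carried most of the difference for each member. The change from mostly rods in Cre- to mostly cones in Tet tcKO lies inside the pooled class and is therefore counted as level. How much of the level part comes from that change was not tested. For Fabp7, levels within classes gave 62.0 of a difference of 55.0 CPM and class shares gave -7.09, since rods and cones together held a smaller share of Tet tcKO UMIs. The level of rods and cones pooled gave 50.6 CPM, or 92.1% of the difference, with the change from rods to cones included. The corresponding share was 92.0% for Smpdl3a and 97.5% for Atoh7. For Etnppl, the difference was -13.4 CPM, of which -12.1 came from levels within classes and -7.41 from levels in rods and cones. In Cre- rods, Etnppl reached 16.2% of its Müller glia level, under the lowest Müller glia marker at 17.4%. The part of transcripts from other nuclei in the -7.41 was not tested.

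**Figure D1:**
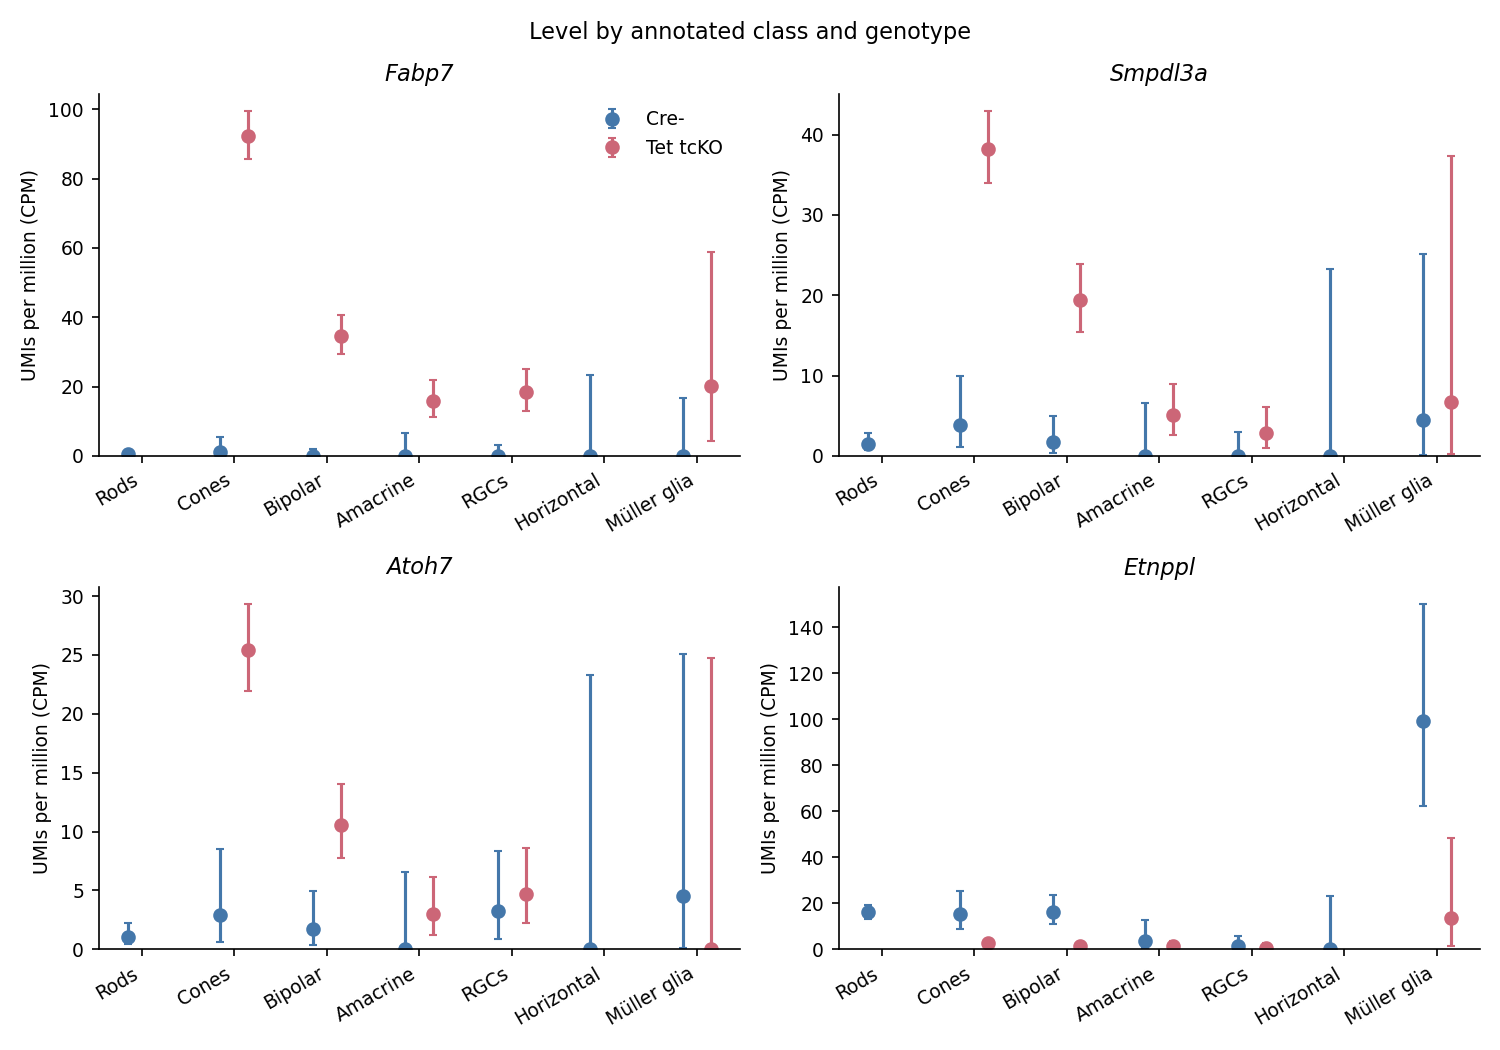
Level of each member in UMIs per 1000000 (vertical axis) by annotated class (horizontal axis) in the Cre- (blue) and Tet tcKO (red) library, with exact 95% Poisson intervals that cover counting error only; classes under 50 nuclei in a library (Tet tcKO rods and horizontal cells) are left out. Fabp7, Smpdl3a and Atoh7 stand highest in Tet tcKO cones, at 92.4, 38.2 and 25.4 CPM, and Etnppl stands highest in Cre- Müller glia, at 99.01 CPM.

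The plot of levels by class shows an order within each library. In Tet tcKO, Fabp7 stood at 92.4 CPM (85.6 to 99.6) in cones, followed by bipolar cells at 34.6 CPM (29.4 to 40.6). Müller glia at 20.1 CPM (4.15 to 58.7, on 3 UMIs), RGCs at 18.3 CPM (13.0 to 25.0) and amacrine cells at 15.8 CPM (11.1 to 21.8) overlapped in their intervals and had no distinct order. Smpdl3a stood at 38.2 CPM (33.9 to 43.0) in cones and 19.3 CPM (15.5 to 23.9) in bipolar cells, then at 5.12 CPM (2.65 to 8.95) in amacrine cells and 2.81 CPM (1.03 to 6.12) in RGCs, whose intervals overlapped. For Atoh7, cones stood at 25.4 CPM (21.9 to 29.3) and bipolar cells at 10.6 CPM (7.77 to 14.1), while RGCs at 4.69 CPM (2.25 to 8.62) and amacrine cells at 2.99 CPM (1.20 to 6.16) overlapped. The intervals of cones and bipolar cells did not overlap for any of these 3 genes. This order follows the annotation, and bipolar clusters 22, 35, 39 and 41 did not pass the marker check. They held 214, 409, 409 and 188 of the 1649 bipolar-annotated Tet tcKO nuclei, and 22, 36, 65 and 11 of their 154 Fabp7 UMIs. The cone marker Cngb3 was among the leading genes of each of these clusters by summed UMIs. Cones held 74.4% of the Fabp7 UMIs, 72.9% of the Smpdl3a UMIs and 74.6% of the Atoh7 UMIs of the library, and 44.6% of all its UMIs.

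Outside photoreceptors, Fabp7 had 0 UMIs in 1878 Cre- nuclei. A floor of 3 UMIs there corresponds to 0.762 CPM, and the exact upper limit is 0.938 CPM. In Cre- against Tet tcKO, RGCs had 0 and 39 Fabp7 UMIs and amacrine cells 0 and 37. With the count of 0 set to a floor of 3 UMIs over the class, the log2 ratio was at least 2.91 in RGCs and at least 1.56 in amacrine cells, and 2.54 and 1.19 when the lower limit of the Tet tcKO count is taken. In RGC cluster 2, which held 111 Cre- and 185 Tet tcKO nuclei, Fabp7 had 0 and 18 UMIs, a log2 ratio of at least 1.86 (1.41 at that lower limit). RGC cluster 31, with 58 and 273 nuclei, had 0 and 8 UMIs, and amacrine cluster 13, with 72 and 122 nuclei, had 0 and 3, and neither gave a bound above 0. Smpdl3a had 0 and 6 UMIs in RGCs and 0 and 12 in amacrine cells, which is too few to give a bound above 0 in either class. In bipolar-annotated nuclei, Cre- and Tet tcKO had 0 and 154 UMIs of Fabp7, 3 and 86 of Smpdl3a and 3 and 47 of Atoh7.

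RGCs, the cells that depend on Atoh7, showed no detectable difference in Atoh7 at this depth. They had 4 UMIs in Cre-, 3.25 CPM (0.886 to 8.32), and 10 UMIs in Tet tcKO, 4.69 CPM (2.25 to 8.62). The log2 ratio was 0.53, and its interval, from -1.27 to 2.66, includes differences in either direction. In amacrine cells, Atoh7 had 0 UMIs in 403 Cre- nuclei and 7 UMIs in 1043 Tet tcKO nuclei, and no direction can be read from these counts.

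Etnppl stood highest in Müller glia in Cre-, although rods, the most abundant class, held 59.7% of its UMIs and 56.9% of all UMIs, and Müller glia 12.5% and 1.93%. Müller glia stood at 99.01 CPM (62.1 to 149.9) on 22 UMIs in 144 nuclei, and no other Cre- class had an interval that reached the lower end of theirs. Of these, 99 nuclei and 15 UMIs were of cluster 14, whose 10 leading genes held 0 Müller glia markers and 1 of another class, although the 7 Müller glia markers summed to 2291 CPM in it and to 4723 CPM in cluster 30. Bipolar cells followed at 16.4 CPM (11.001 to 23.6), rods at 16.04 CPM (13.1 to 19.4) and cones at 15.5 CPM (8.87 to 25.2), with overlapping intervals. Amacrine cells stood at 3.58 CPM (0.434 to 12.9) and RGCs at 1.63 CPM (0.197 to 5.87), on 2 UMIs each, and horizontal cells had 0 UMIs in 90 nuclei. In Tet tcKO, Müller glia stood at 13.4 CPM (1.62 to 48.4) on 2 UMIs in 102 nuclei, and cones at 2.57 CPM (1.55 to 4.01) on 19 UMIs. Müller cluster 30 was present in both libraries, with 43 Cre- and 46 Tet tcKO nuclei, and held 7 and 1 UMIs of Etnppl, or 161 CPM (64.8 to 332) and 14.8 CPM (0.375 to 82.5). Rods and cones pooled had 121 Etnppl UMIs in Cre- (15.97 CPM) and 19 in Tet tcKO (2.56 CPM), with a log2 ratio of -2.64 (-3.42 to -1.93). The part of transcripts from other nuclei in that ratio was not tested.

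Transcripts of an abundant class are also counted in nuclei of other classes, so the members were set beside marker genes of the class in which they stood highest. In Tet tcKO amacrine cells, the 8 cone markers reached 15.8% to 37.3% of their level in cones (median 18.6%), and Fabp7 reached 17.1%, Smpdl3a 13.4% and Atoh7 11.8%. In RGCs the markers reached 11.8% to 27.4% of the cone level (median 14.5%), against 19.8% for Fabp7, 7.36% for Smpdl3a and 18.5% for Atoh7. The 27.4% came from a marker with 12 UMIs there, and the next highest marker stood at 18.5%, under Fabp7. In bipolar cells the markers reached 26.3% to 150.1%, with a median of 57.1%, and the 3 members 37.5%, 50.6% and 41.6% in the same order. In amacrine cells and RGCs these values lay within or under the range of the cone markers, so neither the counts of the 3 members nor the bounds for Fabp7 are read as expression in these classes. The range in bipolar-annotated nuclei is wide and 4 of their 9 clusters did not pass the marker check, so the values there are given without a reading. In Cre-, Etnppl reached 16.2% of its Müller glia level in rods, 15.7% in cones, 16.6% in bipolar cells, 3.62% in amacrine cells and 1.64% in RGCs, under the lowest of the 7 Müller glia markers in each of these classes, where that lowest value was 17.4%, 18.1%, 23.0%, 9.94% and 2.26%.

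**Figure D2:**
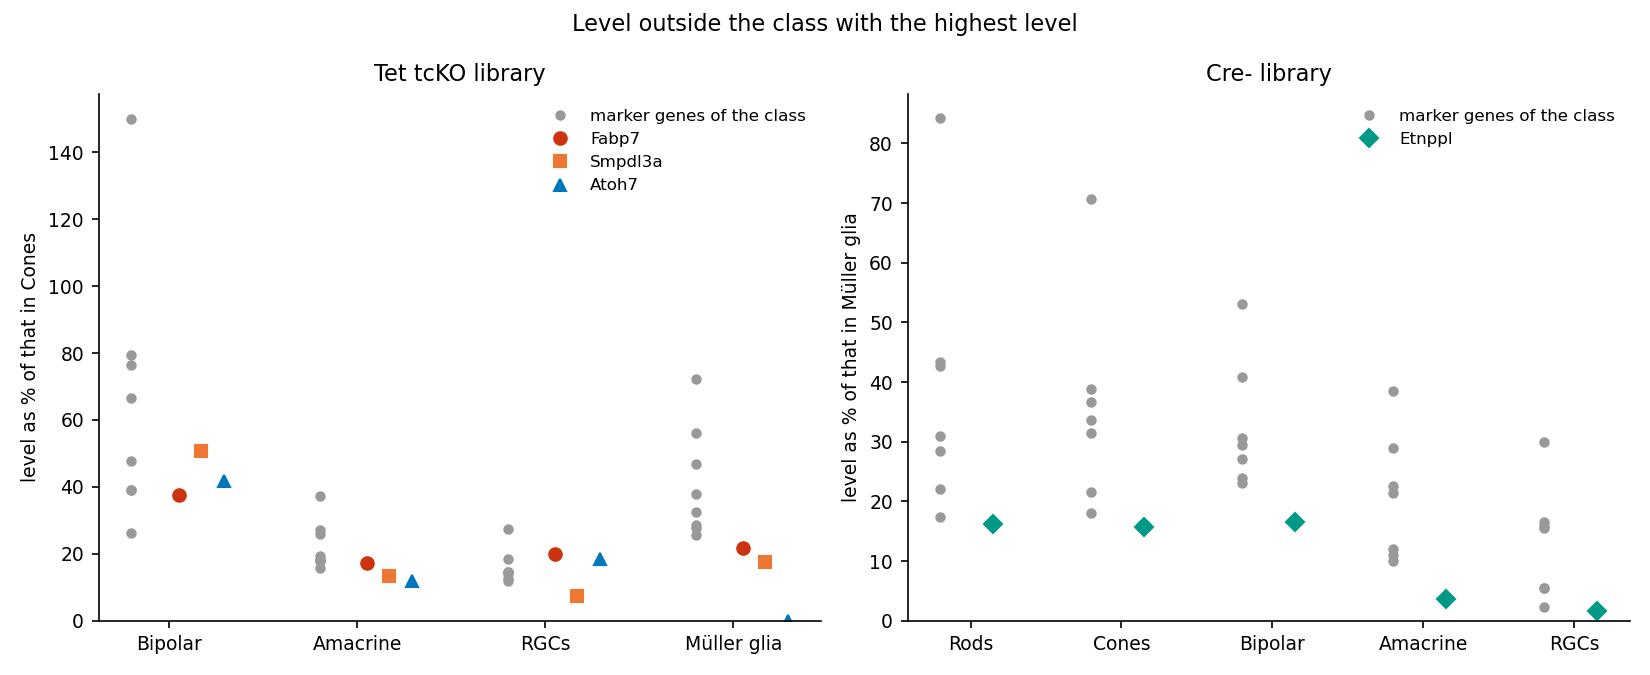
Level in other classes as a percent of the level in the class where the members stood highest (vertical axis), by class (horizontal axis); grey points are the marker genes of that class (8 cone markers in Tet tcKO, left; 7 Müller glia markers in Cre-, right) and coloured points are the members. Fabp7, Smpdl3a and Atoh7 lie within or under the grey range in each class shown, and Etnppl lies under it, at 16.2% in rods against 17.4% for the lowest marker.

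Shares of nuclei with a UMI were compared after thinning every nucleus to 500 UMIs, since depth differed. In Tet tcKO cones, whose median depth was 1715 UMIs, Fabp7 was found in 4.31% of nuclei (3.64 to 5.07), against 0.852% (0.313 to 1.85) in RGCs, the lowest share among classes of 50 nuclei or more, at a median of 2381 UMIs. Without thinning these shares were 18.3% and 5.11%. Smpdl3a was found in 1.58% (1.18 to 2.07) of cones and Atoh7 in 1.18% (0.835 to 1.61), against 0 of 102 Müller glia nuclei for each, which allows a share of up to 2.94% (3 of 102 nuclei, with an exact upper limit of 3.55%), at a median of 1373 UMIs. RGCs had 0.142% (0.00360 to 0.789) for either gene. In Cre- rods and cones pooled, at a median of 1046 UMIs, the thinned share was 0.0365% for Fabp7 and 0.073% for Smpdl3a and for Atoh7. Etnppl was found in 6.25% (2.90 to 11.5) of Cre- Müller glia, at a median of 1093 UMIs, and in 0.767% of rods and cones. It was found in 0 of 403 amacrine nuclei, where 3 nuclei would be 0.744% and the exact upper limit is 0.911%.

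Levels also differed among the Tet tcKO cone clusters, as the plot of levels by cluster shows. Fabp7 ranged from 32.3 CPM (18.8 to 51.8) in cluster 46 to 128 CPM (113 to 144) in cluster 48, which also had the deepest nuclei of the cone clusters, at a median of 4354 UMIs against 1358.5 in cluster 46. Smpdl3a ranged from 17.1 CPM (4.65 to 43.7) in cluster 54 to 57.9 CPM (48.1 to 69.1) in cluster 48. Atoh7 ranged from 13.6 CPM (5.00 to 29.7) in cluster 52 to 33.2 CPM (21.5 to 49.1) in cluster 53, with intervals that overlapped. Fabp7 had at least 1 UMI in every one of the 22 Tet tcKO clusters of 50 nuclei or more, and its lowest level was 7.50 CPM (3.24 to 14.8) in amacrine cluster 12. The highest among amacrine clusters was 36.5 CPM (22.0 to 57.0) in cluster 23. Cone markers were set beside the members by class and not by cluster. Among bipolar-annotated clusters, cluster 22, which is among the 4 that did not pass the marker check, stood highest for all 3 genes, at 56.3 CPM of Fabp7, 41.0 CPM of Smpdl3a and 17.9 CPM of Atoh7. In Cre-, 22 of 25 such clusters had no Fabp7 UMI.

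**Figure D3:**
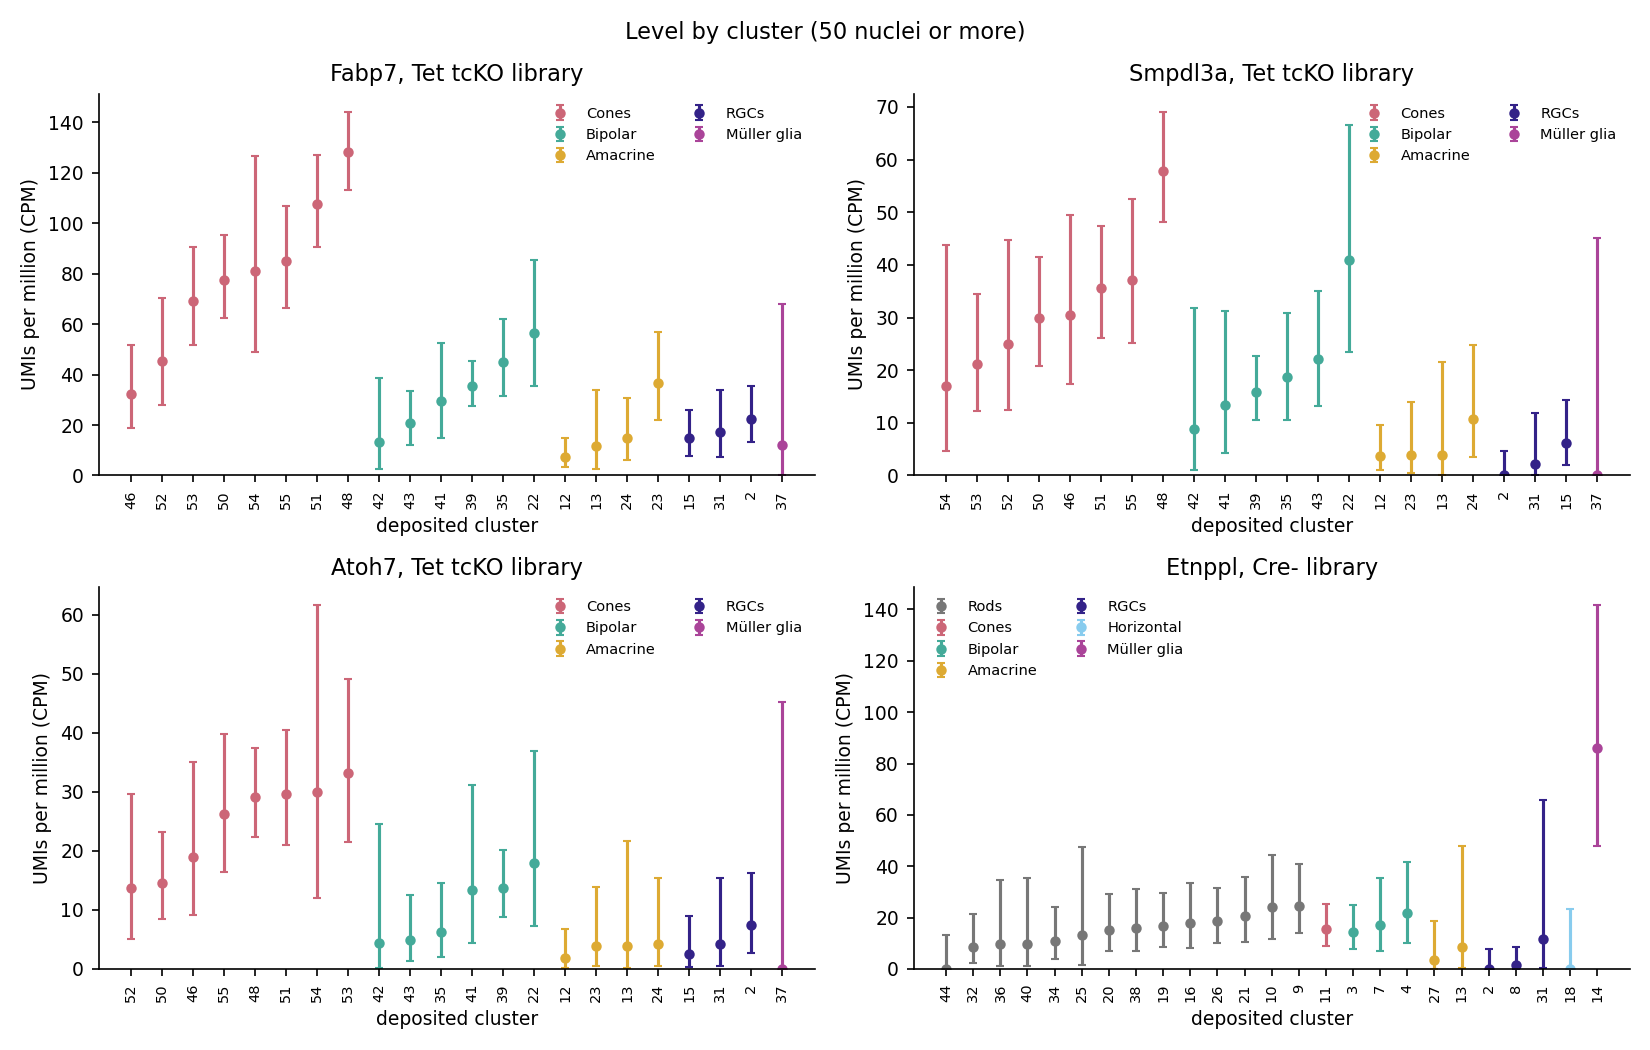
Level in UMIs per 1000000 (vertical axis) in each deposited cluster of 50 nuclei or more (horizontal axis, cluster number), coloured by annotated class, with exact 95% Poisson intervals; the 3 genes higher in Tet tcKO are shown in that library and Etnppl in Cre-. Fabp7 spans 32.3 to 128 CPM among cone clusters, and Etnppl stands at 85.9 CPM in Müller cluster 14 against at most 24.7 CPM in rod clusters, although cluster 14 did not pass the check of its name.

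In the Cre- library, Etnppl was also counted over rod clusters at a low level. Those of 50 nuclei or more ranged from 0 to 24.7 CPM with a median of 15.6 CPM, and Müller cluster 14 stood at 85.9 CPM (48.1 to 142). Marker lists of glia and progenitors are given beside this. The 7 Müller glia markers summed to 949 CPM (Cre-) and 746 CPM (Tet tcKO), with none at 0. The 6 astrocyte markers summed to 214 and 286 CPM, with Igf2 at 0 in both libraries, and the 7 progenitor markers to 172 and 176 CPM, with Fgf15 at 0 in Cre-. The 8 cone markers summed to 1264 and 4520 CPM and the 7 rod markers to 4945 and 1854 CPM. The part of these differences in the results over all nuclei was not tested.

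Because Fabp7 and Smpdl3a are neighbours, their occurrence in the same nuclei was counted. Among 3225 Tet tcKO cones, 591 had a Fabp7 UMI, 257 had a Smpdl3a UMI and 70 had both, where the product of the shares gives 47.1. Smpdl3a was found in 11.8% of cones with Fabp7 and in 7.10% of cones without. Depth differed between these nuclei, with a median of 2719 UMIs in cones with Fabp7 and 1617.5 in cones without. After thinning to 500 UMIs, 3 cones had both genes, where the product of the shares gives 2.20, which is too few to read a pattern. Fabp7 and Atoh7 shared 40 cones before thinning, against 33.9 from the product of shares, and 0 after it. Smpdl3a and Atoh7, which are not neighbours, shared 25 cones against 14.7, and 1 after thinning against 0.601.

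The genes whose levels over the 22 Tet tcKO clusters were most like each member were found by Pearson's r of log2(CPM + 10). For Fabp7 these were Mab21l1 (r = 0.948), Rgs9bp, which encodes a membrane anchor of a photoreceptor signalling complex (0.9403), and Pomgnt1, a glycosyltransferase gene (0.939). For Atoh7 they were Mab21l1 (0.932), Gm28875 (0.928) and Pomgnt1 (0.923), and for Smpdl3a they were Cnbp (0.924), Vldlr (0.905) and 4930579C12Rik (0.899). Among 10827 genes ranked, Atoh7 stood at place 49 for Fabp7 (r = 0.894) and Smpdl3a at place 473 (r = 0.808). For Smpdl3a, Fabp7 stood at place 288, so neither neighbour was among the 3 genes most like the other. Mab21l1 itself had a log2 ratio of 0.39 between the libraries. For Etnppl, over 25 Cre- clusters, the most alike were Six3os1 (0.836), the glial glutamate transporter gene Slc1a3 (0.824) and Dennd1a (0.815). All clusters come from 1 library and differ in depth, so these values are descriptions.

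Other genes near the Tet genes were examined in the same way. Within 10 Mb, and without the Tet genes, 219 genes reached 10 CPM, and 4 of them (1.83%) differed 8-fold, where 0.233% of all 11158 genes did. Of the 4, 3 were higher in Tet tcKO, where 0.197% of all genes were, and 1 was lower, where 0.0358% were. Elsewhere in the genome, 22 of 10897 genes (0.202%) differed 8-fold. These 4 are the members themselves and were picked for both properties, so nothing is read from the excess. At 4-fold, 3 were higher, where 0.583% of all genes were, and 2 were lower, where 0.197% were. At 2-fold, 16 of the 219 genes (7.31%) differed, 7 higher and 9 lower, against 5.66% of all genes and 5.57% of genes elsewhere. The 4-fold and 2-fold counts also include the 4 members, which were picked for their change and position. Nothing is therefore read from these shares either. The median log2 ratio was 0.16 for the 219 genes and 0.15 elsewhere.

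With the members counted, 6 of 74 genes near Tet1 differed 2-fold, near Tet2 it was 5 of 56 and near Tet3 5 of 89, and no gene near Tet3 differed 8-fold. Besides the members, the highest were Nfkb1, a gene of the NF-kappa-B family, at 82.4 and 224 CPM (log2 ratio 1.44, 1.34 to 1.55), and Lrit3, a synaptic leucine-rich repeat gene, at 11.9 and 29.4 CPM (1.30, 1.03 to 1.59), both near Tet2. The lowest were Rtkn2 at 29.3 and 5.42 CPM (-2.43, -2.78 to -2.09), Mypn (-1.41), Gm20594 (-1.30) and the mitotic kinesin gene Cenpe (-1.29).

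**Figure D4:**
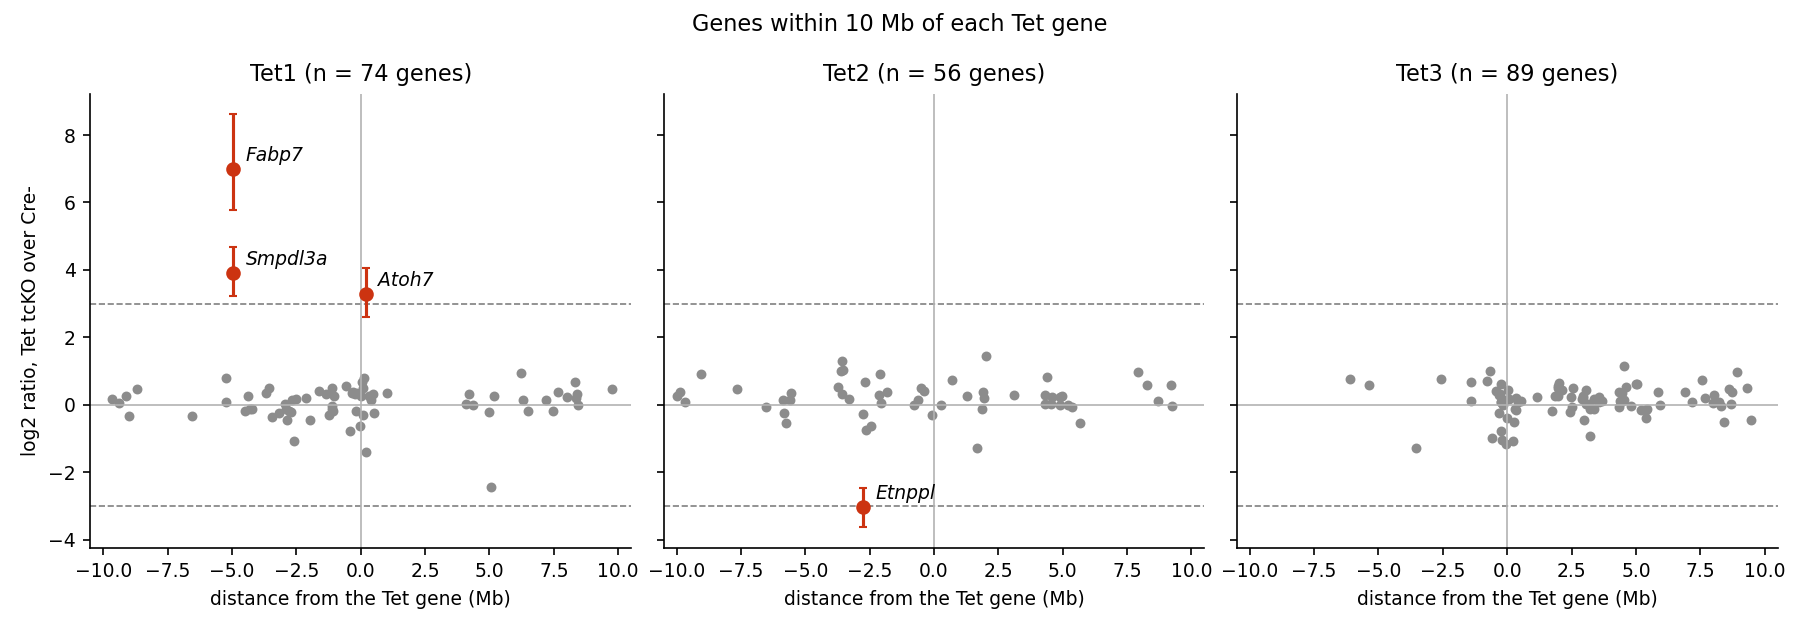
Log2 ratio of Tet tcKO over Cre- (vertical axis) for genes at 10 CPM or more against their distance from Tet1, Tet2 or Tet3 in Mb (horizontal axis, negative toward the start of the chromosome); red points are the members with exact 95% intervals, grey points other genes and dashed lines 8-fold. The members stand at 6.99, 3.90, 3.28 and -3.03, and the grey points between -2.43 and 1.44.

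The nearest measured neighbours are described by their values, and the rule fixes that none of them at 10 CPM reached 8-fold, since it would then be a member. Serinc1, at 252 kb before Fabp7, went from 57.9 CPM in Cre- to 101 CPM, with a log2 ratio of 0.80 (0.67 to 0.93). Gcc2, at 403 kb after Smpdl3a, had -0.18 (-0.26 to -0.09). Pbld2, at 40.8 kb before Atoh7, had 0.79 (0.41 to 1.18), while Mypn, a muscle sarcomere gene at 10.3 kb after Atoh7, had 36.2 and 13.6 CPM and a ratio of -1.41 (-1.65 to -1.17), opposite to Atoh7. Col25a1, at 17.6 kb before Etnppl, had -0.27 (-0.40 to -0.15), and Ostc, at 58.1 kb after it, had 0.67 (0.38 to 0.97).

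Some genes met the criteria but for 1. Tmem26, at 5.81 Mb from Tet1, had a log2 ratio of 3.15 (2.27 to 4.19) but reached 8.50 CPM, and Adh6b, at 4.80 Mb from Tet2, had 17 Cre- and 2 Tet tcKO UMIs (1.48 and 0.121 CPM, log2 ratio -3.61, -6.77 to -1.54). Clca1 had a log2 ratio of 4.07 (3.40 to 4.84) at 11.5 Mb from Tet2. Rtkn2, at 5.07 Mb from Tet1, was the nearest under the 8-fold limit. Just inside it were Etnppl (-3.03) and Atoh7 (3.28).

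Relatives of each member by function were read from lists. Among fatty acid binding proteins, 4 of 14 genes reached 10 CPM. Beside Fabp7, Fabp5 was higher in Tet tcKO, at 8.77 and 18.9 CPM (log2 ratio 1.10, 0.78 to 1.44), and Fabp12 and Fabp4 were lower, at -1.47 (-1.62 to -1.33) and -1.06 (-1.31 to -0.80). The median of the 4 was 0.02 (-0.08 under TMM scaling) and that of the 3 without Fabp7 was -1.06, against 0.15 for all 11158 genes, of which 3.18% were 2-fold higher and 2.48% lower.

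Among 13 genes of sphingomyelin and ceramide turnover, 10 reached 10 CPM. Smpdl3a alone was 2-fold higher, where 3.18% of all 11158 genes were. The other 9 lay between -0.62 (Smpd2, a neutral sphingomyelinase gene) and 0.57 (Acer3, an alkaline ceramidase gene), with a median of 0.24. Smpdl3b, the closest relative of Smpdl3a by name, had 19 and 33 UMIs (1.65 and 1.99 CPM) and a log2 ratio of 0.27 (-0.59 to 1.17).

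Of 13 proneural bHLH factors, Atoh7 and 3 others reached 10 CPM. Neurod1, Neurod4 and Neurod2 stood at log2 ratios of 0.30 (0.24 to 0.37), 0.20 (0.05 to 0.34) and -0.11 (-0.42 to 0.20), each less than 2-fold. Of the 13 ganglion cell factors that act with or after Atoh7, 9 reached 10 CPM, 1 was 2-fold higher and none was 2-fold lower. Over all 11158 genes, 3.18% were 2-fold higher and 2.48% lower, and 9 genes are too few to read a difference from these shares. The median of the 9 was 0.02 and became -0.09 under TMM scaling. The ratios of these factors cover all nuclei, and RGCs held 10.7% of Cre- and 12.9% of Tet tcKO UMIs. Levels of these factors within RGCs were not compared. Sox11, an early neuronal factor, stood at 7.04 and 15.0 CPM (1.09, 0.73 to 1.47; 0.99 under TMM, short of 2-fold) and Sox4 at 24.4 and 40.6 CPM (0.73, 0.53 to 0.94), while Onecut2 (-0.43) and Isl1 (-0.38) were the lowest.

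Of 15 genes of phosphoethanolamine metabolism, 12 reached 10 CPM, and Etnppl alone was 2-fold lower, where 2.48% of all 11158 genes were. The other 11 lay between -0.47 (Pcyt2, the rate-limiting step of phosphatidylethanolamine synthesis from ethanolamine) and 0.73 (Cept1), with a median of 0.35. Phykpl, the paralog of Etnppl, had 11.6 and 14.3 CPM and a log2 ratio of 0.30 (-0.02 to 0.61), and Selenoi had 0.55 (0.32 to 0.79).

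**Figure D5:**
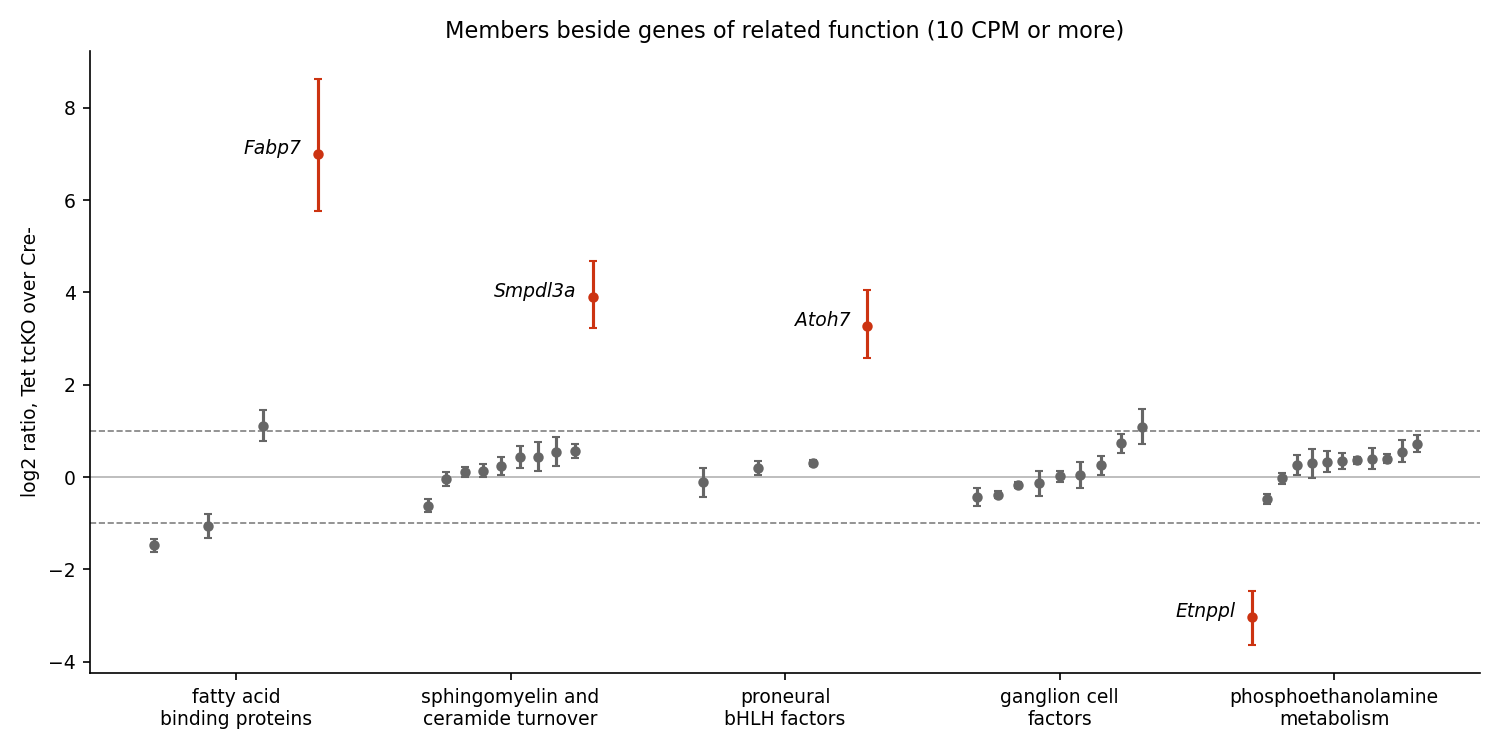
Log2 ratio of Tet tcKO over Cre- (vertical axis) for genes at 10 CPM or more in 5 lists of related genes (horizontal axis), with exact 95% intervals; members are red, other genes grey, and dashed lines mark 2-fold. Members stand at 6.99, 3.90, 3.28 and -3.03, and the other genes between -1.47 and 1.10.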

How the data were processed

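Nuclei of 1 Cre- and 1 Tet tcKO library were analysed. Per the labels, capture used a PIPseq 3′ kit, and reads were processed with pipseeker 3.3.0 on GRCm39. The authors removed ambient RNA with CellBender and filtered nuclei by total and by mitochondrial share. The deposited matrices hold whole UMI counts after these steps, and the totals of the deposited cell table equalled the matrix sums in 7357 of 7357 and 6766 of 6766 nuclei. Clusters and cell types are the authors' annotation.

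UMIs were summed per population and divided by its total (CPM). Log2 ratios are Tet tcKO over Cre-, with exact conditional intervals, and levels have Poisson and shares Clopper-Pearson intervals, all at 95% and for counting error only. With 1 library per genotype no test was made. A count of 0 was set to 3 in a ratio, and ratios are left out where neither count exceeds 3 or a class held under 50 nuclei in a library. Positions came from GENCODE on GRCm39 for 31681 of 32227 genes, with distances between gene bodies. A cluster's marker check used its 10 leading genes by fold over other nuclei. No doublet caller was run. Members and gene lists were chosen with earlier results of these data known. Named genes were the members, the Tet genes, at most 5 genes at each end of the window, nearest neighbours at 10 CPM, the 3 most alike genes, genes just outside the rule, and the ends of each list. Tmem26, Adh6b, Clca1, Smpdl3b and Phykpl were named after their values were seen. Of the fatty acid binding protein list, 1 gene is not reported here and was left out of its counts and medians after values were seen, so these are not those of the full list. The intervals were tested on simulated data. Alternatives were TMM and median-of-ratios scaling, other nuclei, windows, folds and minimum levels. Python 3.11.15, numpy 2.4.6, scipy 1.17.1, pandas 2.3.3, R 4.3.3 and edgeR 4.0.16 (TMM factors) were used.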

Additional observations from a re-analysis of the deposited data

Results flagged for a closer look

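The deposited gene table counts more nuclei with each member than the 2 matrices hold. The table exceeded the matrices by 75 nuclei for Fabp7 (892 against 817), 65 for Smpdl3a (434 against 369), 23 for Atoh7 (287 against 264) and 38 for Etnppl (232 against 194). The matrices held 91.6%, 85.0%, 92.0% and 83.6% of the nuclei in the table. The Tet genes showed the same, at 86.8%, 86.8% and 85.5%. These counts in the table have no genotype and entered no comparison, and what sets the tables apart was not tested.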

How the results depend on the processing

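No log2 ratio of a member changed direction under any alternative run. Of 42 recomputed log2 ratios, 40 stayed inside the counting interval. The exceptions were Fabp7 in nuclei of 1000 UMIs or more, at 8.97, and Atoh7 with every nucleus thinned to 500 UMIs, at 2.47. That Atoh7 value is under 8-fold. Etnppl stayed inside its interval but also fell short of 8-fold in some alternatives over all nuclei. It stood at -2.93 after thinning to 500 UMIs and at -2.91 without the deepest 5% of nuclei per class and library. It was -2.75 with Cre- class shares in both libraries and -2.85 without repeat UMIs of a gene in a nucleus. In the other alternatives over all nuclei, Etnppl lay between -3.14 and -3.01. Without thinning, the shares of nuclei with a UMI in rods and cones were 18.3% (Fabp7), 7.95% (Smpdl3a), 5.73% (Atoh7) and 0.588% (Etnppl) in Tet tcKO, and 0.256% (Smpdl3a) and 2.12% (Etnppl) in Cre-, with 12.5% of Cre- Müller glia for Etnppl. The 4 genes past 8-fold near a Tet gene became 16 at 2-fold and 1 at a minimum of 50 CPM, and ranged from 4 to 6 under the other alternatives for that count. The median of fatty acid binding proteins was -0.46 at a minimum of 1 CPM. That of proneural factors was 0.14 under median of ratios and 0.11 with each gene counted once per nucleus, where that of ganglion cell factors was -0.16. No paired analysis was possible because each genotype has 1 library. Numbers of nuclei limit Tet tcKO rods, horizontal cells and Müller glia most, at 6, 37 and 102.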
